A study of Mus musculus with 6 samples.

Results

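The cholesterol synthesis genes described here are 8 transcripts of sterol synthesis and its control, Hmgcs1, Idi1, Fdps, Sqle, Lss, Dhcr7, Srebf2 and Insig1. The set is a list of symbols with no threshold on measured values, but it was chosen with earlier results of these data known. All 8 were found among the 24422 gene symbols of the deposited count table. The data are gene counts from 6 poly-A RNA libraries of kidneys taken at postnatal day 13 from C57BL/6 mice on an iron-sufficient diet (220 ppm iron). The 3 Control libraries are labelled wild type. The 3 TfR1 knockout libraries carry the genotype Tfr1f/f;SixCre, in which exons 3 and 4 of the transferrin receptor gene Tfrc (TfR1) are floxed and a Six2-CreEGFP recombinase acts in the mesenchymal progenitors that form the nephron. Ureteric, stromal and blood cells lie outside this deletion, and the study describes residual TfR1+ tubule cells that kept the receptor. No Cre is named for the Control libraries, so carrying the recombinase and losing the receptor cannot be told apart. The comparison asked how far transcripts of the sterol pathway differ when the transferrin receptor is deleted in the nephron lineage.

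Cholesterol is built from acetyl-CoA through mevalonate, isoprenoid diphosphates, squalene and lanosterol, and several of the late oxidation and demethylation steps use iron-containing enzymes. The pathway is controlled mainly by SREBP2, the product of Srebf2, a membrane-bound transcription factor of the endoplasmic reticulum. When sterols are low, SCAP escorts SREBP2 to the Golgi for cleavage and its released part enters the nucleus, where it activates most genes of the pathway. When sterols are high, INSIG proteins hold SCAP and SREBP2 back. The proximal tubule takes up lipoproteins and also makes cholesterol of its own.

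SREBP2 binds sterol response elements in promoters, usually beside sites for NF-Y and Sp1, so the promoters of the set were read for these letters. RefSeq promoter windows (build GRCm38.p6, from 250 bases before to 50 bases after a start site) were matched by symbol for 6 of the 8 genes, with 3 start sites for Dhcr7, which gave 8 windows. Both strands were searched for the sterol response element core TCACNCCAC, for its looser form CACNCCAC, which lies within the first, for CCAAT (NF-Y) and for GGGCGG (Sp1). TCACNCCAC was found in 1.24% of 32851 promoters, and among the set only in Hmgcs1, 137 bases before the start. CACNCCAC was found in 6.24% of promoters, and among the set in Hmgcs1 and Insig1. CCAAT was present in 37.4% and GGGCGG in 35.7% of all promoters, and both were present in Hmgcs1, Idi1, Lss, Insig1, Srebf2 and 1 of the 3 Dhcr7 windows. The share of all promoters that hold both was not counted. The 250 bases before the start are shown for Hmgcs1, which holds TCACNCCAC, for Insig1, which holds only the looser CACNCCAC, and for Idi1, which holds neither and is the measured gene of the set with the smallest p-value below. All lie on the plus strand, and capitals mark every match on either strand, a minus-strand match being printed as its reverse complement.
Hmgcs1, chr13:119690101-119690350: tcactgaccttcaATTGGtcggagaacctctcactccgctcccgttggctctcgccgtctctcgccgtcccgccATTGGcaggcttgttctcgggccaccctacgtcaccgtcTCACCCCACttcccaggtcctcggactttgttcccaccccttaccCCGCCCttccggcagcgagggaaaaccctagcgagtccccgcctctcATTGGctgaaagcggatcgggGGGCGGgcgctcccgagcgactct
Insig1, chr5:28071162-28071411: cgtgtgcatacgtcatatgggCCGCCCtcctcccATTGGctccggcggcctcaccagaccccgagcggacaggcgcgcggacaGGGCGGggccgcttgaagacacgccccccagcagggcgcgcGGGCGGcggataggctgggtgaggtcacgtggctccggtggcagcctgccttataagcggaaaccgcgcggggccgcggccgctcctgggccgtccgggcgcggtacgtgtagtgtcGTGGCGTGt
Idi1, chr13:8885356-8885605: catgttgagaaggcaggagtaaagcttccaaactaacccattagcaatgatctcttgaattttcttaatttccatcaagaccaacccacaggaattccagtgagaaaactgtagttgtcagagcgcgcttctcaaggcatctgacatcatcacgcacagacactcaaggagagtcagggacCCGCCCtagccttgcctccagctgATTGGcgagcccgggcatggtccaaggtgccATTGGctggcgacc

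The total of gene counts per library lay between 16591156 and 22898008. Of 16509 genes given an adjusted p by DESeq2's Wald test, 2463 (14.9%) passed 0.05. Of these, 1277 (7.74%) were higher and 1186 (7.18%) lower in TfR1 knockout kidneys. With size factors taken from the total counts, these became 996 higher and 1407 lower, and the median log2 fold change of all tested genes moved from 0.01 to -0.10. edgeR's quasi-likelihood test called 921 of 15308 genes (6.02%). The targeted gene Tfrc had 5534, 6485 and 3667 normalized counts in the Control libraries against 6976, 4045 and 5898 in the TfR1 knockout libraries, which overlapped and did not check the labels (log2 fold change 0.11, DESeq2 adjusted p 0.853). The 3 libraries of a group are labelled biological replicates, and the p-values set the group difference against the spread estimated between libraries. Values by library are listed throughout in the order of replicates 1 to 3. In whole kidney, fewer cells of a type and less RNA per cell cannot be told apart.

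None of the cholesterol synthesis genes changed between the groups at an adjusted p under 0.05. The count was 0 of 7 tested genes in DESeq2, in edgeR and in limma-voom, against 14.9%, 6.02% and 6.15% of all genes tested by each. Idi1 alone had an unadjusted p under 0.05 in DESeq2, where 27.3% of all tested genes did. The 3 Control and 3 TfR1 knockout libraries overlapped for every measured gene of the set, whereas they did not overlap for 33.7% of all tested genes. The 7 log2 fold changes ran from -1.0 for Idi1 to 0.42 for Insig1, with 4 below 0 and 3 above, and their median was -0.14 against 0.01 over all tested genes. For 5 of the 7 (Fdps, Sqle, Lss, Srebf2 and Insig1) the 95% interval of the difference lay within 2-fold either way, as it did for 53.8% of all tested genes. The intervals of Idi1 and Dhcr7 reached beyond 2-fold lower, so that a 2-fold lower level lay within both.

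**Figure D1:**
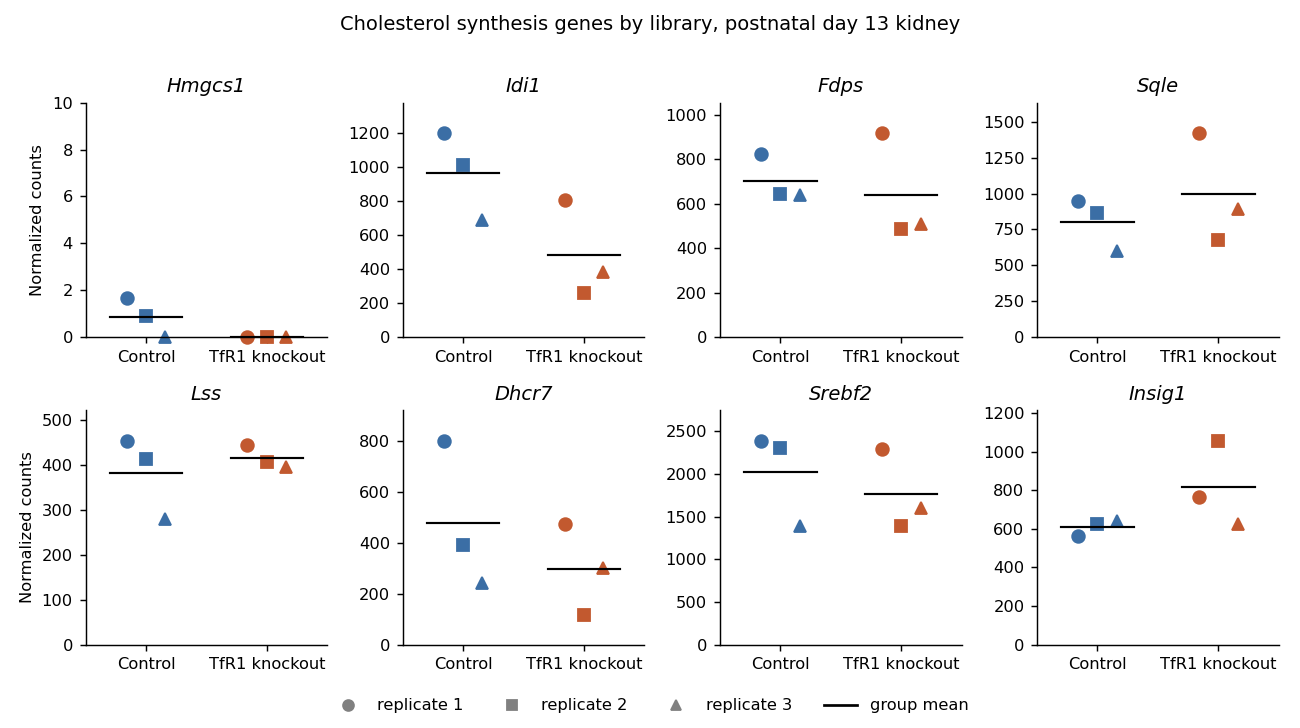
Normalized counts (linear axis, from 0, with its own range for each gene) of the 8 cholesterol synthesis genes in the 3 Control (blue) and 3 TfR1 knockout (orange) libraries, with symbols for the replicate number and a line at each group mean. The groups overlap in every panel, replicate 1 is the highest of its group for all measured genes but Insig1, and Hmgcs1 lies at or near 0 throughout.

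Hmgcs1 encodes the cytosolic synthase that makes HMG-CoA on the way to mevalonate. Its raw counts were 2, 1 and 0 in the Control libraries and 0 in each TfR1 knockout library. These counts are at or under a floor of 3 counts, so no fold change is given and the gene received no adjusted p. The whole 300-base promoter window of Hmgcs1, whose first part is shown above, occurs 2 times in the mm9 genome, both times on unplaced contigs and 0 times on the chromosomes. Over a stretch of the gene's RefSeq length (17910 bases), 100% of 17811 windows of 100 bases, the read length of the study, were the same at both places. The windows of Insig1, Idi1, Lss, Srebf2 and Dhcr7 each occurred once, on a chromosome. The authors analysed uniquely mapped reads only, and which contigs their index held is not given in the sources used here. With its counts at or under the floor, the level of Hmgcs1 was taken as not measured, and the 7 other genes carry the results. The cause of its low counts was not tested.

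Idi1 (mm9, chr13:8884852-8891641, plus strand) encodes the isomerase that turns isopentenyl diphosphate into its allylic partner. It had 1198, 1013 and 687 normalized counts in the Control libraries against 807, 256 and 380.3 in the TfR1 knockout libraries. TfR1 knockout replicates 2 and 3 lay under every Control library, and TfR1 knockout replicate 1 lay above Control replicate 3. The log2 fold change was -1.0 (SE 0.42, 95% interval -1.83 to -0.18), the lowest of the set, with a DESeq2 adjusted p of 0.0893 and an edgeR adjusted p of 0.185. Without TfR1 knockout replicate 1, Idi1 fell by 1.60 on the log2 scale (DESeq2 adjusted p 2.71e-05), 1 of 7 tested genes of the set against 10.5% of all genes called lower and 20.0% called in either direction in that fit. Without any other single library it did not pass (log2 fold changes -1.20 to -0.70).

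Fdps (mm9, chr3:88897514-88905881, minus strand) encodes farnesyl diphosphate synthase, which stands where the sterol and isoprenoid branches part. Its normalized counts were 822, 645 and 639 in the Control libraries against 917, 486 and 509.9 in the TfR1 knockout libraries. The knockout libraries thus held both the highest value and the lowest 2 values. Its log2 fold change was -0.14 (SE 0.30, 95% interval -0.73 to 0.45, DESeq2 adjusted p 0.811).

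Sqle (mm9, chr15:59146632-59162747, plus strand) encodes squalene epoxidase, the first oxygen-using step of the sterol branch. It had 946, 863 and 602 normalized counts in the Control libraries against 1419, 673 and 894 in the TfR1 knockout libraries. TfR1 knockout replicate 1 stood above all other libraries, and the remaining knockout libraries lay within the Control range. The log2 fold change was 0.31 (SE 0.32, 95% interval -0.32 to 0.94, DESeq2 adjusted p 0.577) and was -0.04 without TfR1 knockout replicate 1.

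Lss (mm9, chr10:75994333-76019883, plus strand) encodes lanosterol synthase, which closes the sterol rings. It had 453, 413 and 279.9 normalized counts in the Control libraries against 445, 407 and 394 in the TfR1 knockout libraries. The 3 knockout libraries were within a factor of 1.13 of each other and lay inside the Control range. Its log2 fold change came to 0.12 (SE 0.24, 95% interval -0.35 to 0.59, DESeq2 adjusted p 0.799). In the mm9 annotation 381 of its 10787 exon bases are shared with 4930483K19Rik, and the assignment of reads there is uncertain.

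Dhcr7 (mm9, chr7:151009050-151034315, plus strand) encodes the reductase of the last step toward cholesterol by the 7-dehydrocholesterol route. It had 799, 392 and 243 normalized counts in the Control libraries against 471, 116 and 299.9 in the TfR1 knockout libraries. It varied widely within both groups, with a coefficient of variation of 60.2% in Control and 60.0% in TfR1 knockout libraries, where Idi1 reached 60.1%, against medians of 12.3% and 16.3% over tested genes averaging 100 or more normalized counts. The log2 fold change was -0.69 (SE 0.54, 95% interval -1.75 to 0.37, DESeq2 adjusted p 0.427). Leaving out TfR1 knockout replicate 1 gave -1.20, and leaving out Control replicate 1 gave -0.11.

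Srebf2 (mm9, chr15:81977696-82035806, plus strand), the gene of SREBP2 itself, had 2387, 2305 and 1384 normalized counts in the Control libraries against 2290.2, 1393 and 1599 in the TfR1 knockout libraries. All 3 knockout libraries lay within the Control range. Srebf2 differed by a log2 fold change of -0.20 (SE 0.29, 95% interval -0.78 to 0.37, DESeq2 adjusted p 0.708). These counts measure the transcript and not the cleaved, active protein.

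Insig1 (mm9, chr5:28397952-28405201, plus strand), the sterol-regulated brake on SREBP2 and itself an SREBP2 target, had 562, 627 and 642 normalized counts in the Control libraries against 768, 1057 and 624 in the TfR1 knockout libraries. TfR1 knockout replicates 1 and 2 stood above every Control library, and replicate 3 lay within the Control range. The log2 fold change was 0.42 (SE 0.24, 95% interval -0.06 to 0.89), the highest of the set, with a DESeq2 adjusted p of 0.255 and an edgeR adjusted p of 0.253. It stayed above 0 in each of the 6 fits that left out 1 library (0.19 to 0.58) and passed in none of them.

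**Figure D2:**
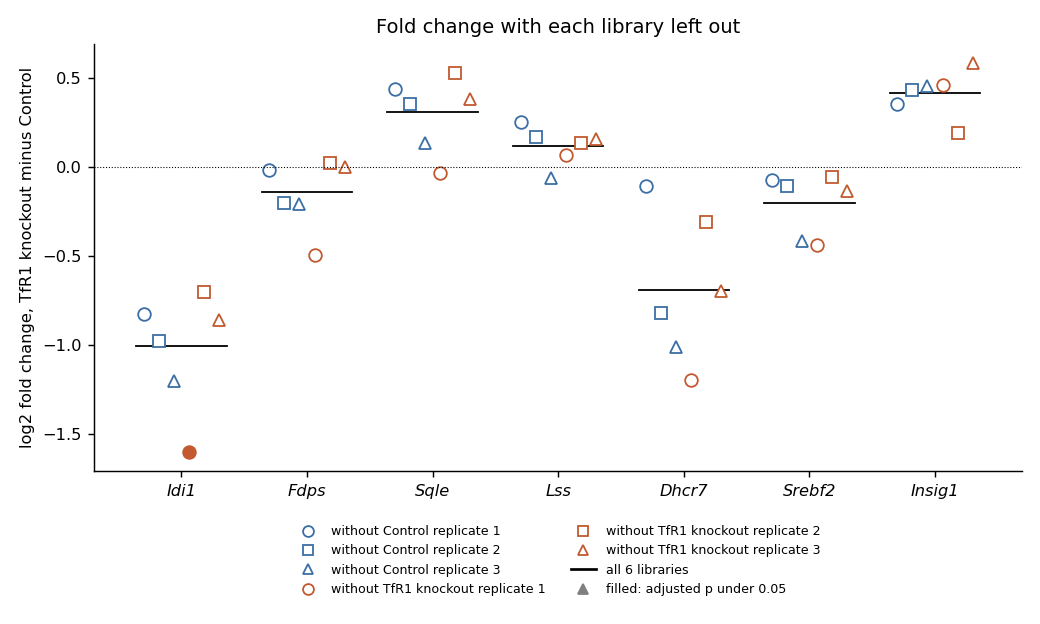
Log2 fold change (TfR1 knockout minus Control) of the 7 measured genes in fits that left out 1 library each, with colour and shape for the library left out and a black line for all 6 libraries. The only filled symbol, an adjusted p under 0.05, is Idi1 without TfR1 knockout replicate 1 at -1.60.

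Levels were compared between genes per kilobase of exon. In Control kidneys Fdps was highest at 569.6 ± 84.2 normalized counts per kb (SD, n = 3), followed by Srebf2 at 406 ± 112, Idi1 at 337 ± 90.3, Insig1 at 231 ± 15.9, Sqle at 145 ± 32.4, Dhcr7 at 126 ± 76.0 and Lss at 35.4 ± 8.42. Neighbours in this order overlapped between libraries for Srebf2 and Idi1, for Idi1 and Insig1, and for Sqle and Dhcr7. In TfR1 knockout kidneys Fdps stood at 517 ± 196 normalized counts per kb and Srebf2 at 353 ± 94.2, and both again headed the order. Insig1 (308 ± 83.2) and Sqle (179 ± 69.1) came next, ahead of Idi1 (168 ± 101), Dhcr7 (78.2 ± 46.9) and Lss (38.5 ± 2.42). Idi1 thus stood at rank 3 in Control and rank 5 in TfR1 knockout kidneys, where every pair of neighbours overlapped. Measured per kb of the longest transcript, the Control order was the same, with Sqle at 179.9, Dhcr7 at 169.8 and Lss at 54.6.

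Most genes of the set shared an order over the libraries. Idi1, Fdps, Sqle, Lss, Dhcr7 and Srebf2 were highest in replicate 1 of both groups and, among the Control libraries, lowest in replicate 3. Over 12095 tested genes averaging 100 or more normalized counts, Control replicate 1 was the highest of its group for 23.1%, Control replicate 3 the lowest for 49.9% and TfR1 knockout replicate 1 the highest for 35.8%. In TfR1 knockout replicate 2, 5 of the 7 (Idi1, Fdps, Sqle, Dhcr7 and Srebf2) were at their lowest, against 37.5% of those genes. Insig1 ran the other way, highest in Control replicate 3 and TfR1 knockout replicate 2 and lowest in Control replicate 1. Among the 16 other sterol enzymes described below, Control replicate 3 was lowest of its group for 14 and Control replicate 1 highest for 8. TfR1 knockout replicate 1 was the highest of its group for 9 of these enzymes and TfR1 knockout replicate 2 the lowest for 5. Genes of 1 pathway are not independent of each other, and these counts are a description. Summed over the 8 genes, the libraries held 7169, 6260 and 4477 normalized counts in the Control libraries against 7117, 4388 and 4701 in the TfR1 knockout libraries.

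**Figure D3:**
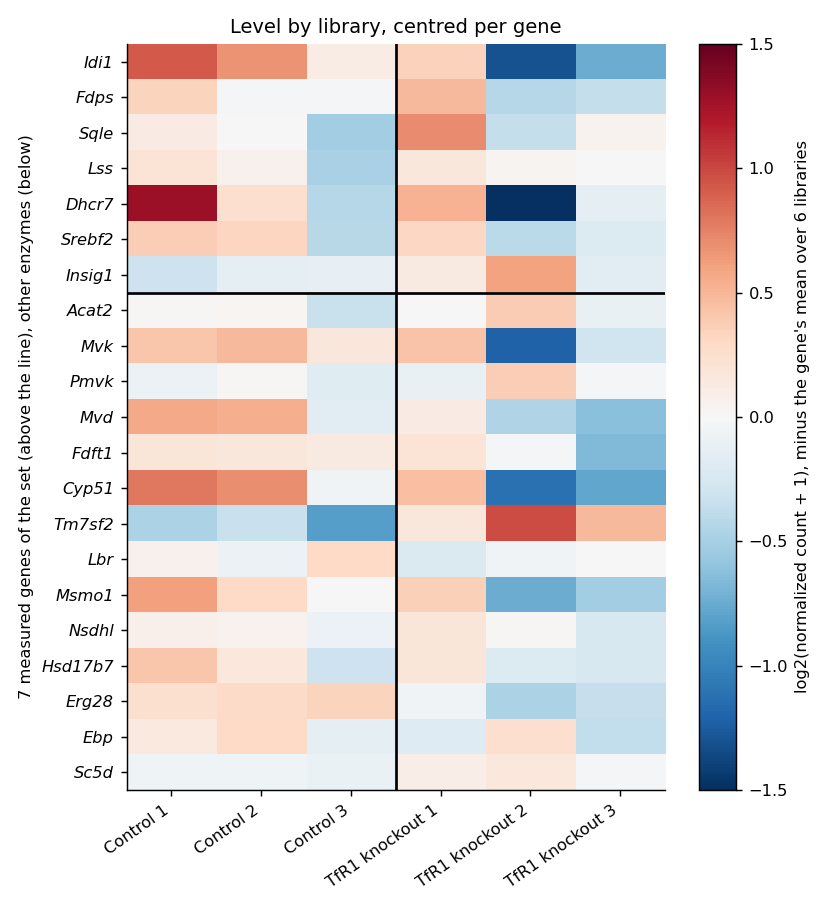
Centred levels, as log2(normalized count + 1) minus the gene's mean over the 6 libraries, of the 7 measured genes (above the line) and of other enzymes of the pathway (below), with red above and blue below the mean. Idi1, Dhcr7, Cyp51, Mvk and Msmo1 are darkest blue in TfR1 knockout replicate 2, and Insig1 and Tm7sf2 are red there.

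Other features differed between the same libraries. The 10 proximal tubule markers summed to 177639, 183263 and 90777 normalized counts in the Control libraries against 172205, 224263 and 135863 in the TfR1 knockout libraries, with 2 of 10 called higher, 4 lower and none at 0. Across all genes 7.74% were called higher and 7.18% lower, the background for each list here. Control replicate 3, the lowest Control library for 6 of the 7 cholesterol synthesis genes, had the lowest sum, and TfR1 knockout replicate 2 the highest. The mean log2 level over these markers, in which each counts alike, gave another order, highest in Control replicate 2 (13.70) and lowest in TfR1 knockout replicate 3 (11.96), with TfR1 knockout replicate 2 (12.33) below Control replicate 3 (12.69). Of the 10 log2 fold changes 8 lay below 0, and their median was -0.87. The 8 stromal markers summed to 74245 to 151476 in Control and 40699 to 73402 in TfR1 knockout libraries, with 2 of 8 lower, none at 0 and Control replicate 3 the highest. All 6 thick ascending limb markers were lower and none at 0, with sums of 47118 to 96543 in Control and 14134 to 25541 in TfR1 knockout libraries. Of 10 macrophage markers 7 were higher and none was at 0, with sums of 2385 to 3796 and 6971 to 8822. The female-specific transcript Xist was at 16704, 78.2 and 22092 normalized counts in Control and at 145, 27153 and 1031 in the TfR1 knockout libraries, so that it followed neither the groups nor the order of the cholesterol synthesis genes. The part of cell make-up and sex in the sterol values was not tested.

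Around the set, the remaining enzymes from acetyl-CoA to cholesterol were taken from a list of 16, all of which were tested. Of these, 1 rose and 1 fell (DESeq2, against backgrounds of 7.74% and 7.18%), 4 had log2 fold changes above 0 and 12 below, and their median was -0.19. Tm7sf2, a sterol reductase after the lanosterol demethylase, had 251, 279 and 198 normalized counts in the Control libraries against 395, 691 and 490.0 in the TfR1 knockout libraries, without overlap. It rose by a log2 fold change of 1.11 (SE 0.28, DESeq2 adjusted p 0.00137, edgeR adjusted p 0.0455) and passed in all 6 fits that left out 1 library. In the mm9 annotation 532 of its 3484 exon bases are shared with 1110014N23Rik. Lbr, the nuclear envelope protein that can carry out the same reduction, was at 919 ± 127 and 807 ± 61.7 normalized counts (SD, n = 3 each, log2 fold change -0.19, DESeq2 adjusted p 0.546). Erg28, a scaffold of the demethylation enzymes listed as 0610007P14Rik, fell by 0.57 on the log2 scale (942, 974 and 1006 against 768, 572 and 624 normalized counts, DESeq2 adjusted p 0.0161). Its edgeR adjusted p was 0.0664, and it passed in 1 of the 6 fits that left out 1 library, the one without TfR1 knockout replicate 1.

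The other enzymes of the list did not pass with all 6 libraries. Cyp51, the iron-containing lanosterol demethylase, had 1746, 1637 and 969 normalized counts in the Control libraries against 1373, 463 and 586 in the TfR1 knockout libraries (log2 fold change -0.84, SE 0.42, DESeq2 adjusted p 0.174). The libraries stood in the same order as for Idi1, with TfR1 knockout replicate 1 above Control replicate 3. Mvd, the decarboxylase before Idi1, had a log2 fold change of -0.63 (SE 0.30, DESeq2 adjusted p 0.152), mevalonate kinase Mvk of -0.58 (SE 0.40, 0.354) and the iron-dependent methyl oxidase Msmo1 of -0.54 (SE 0.33, 0.289). Fdft1, squalene synthase between Fdps and Sqle, was at -0.28 (SE 0.26, DESeq2 adjusted p 0.515), and 769 of its 2860 exon bases are shared with Ctsb. The others named here lay between -0.20 for Hsd17b7 and 0.20 for Acat2, with Ebp at -0.19, Nsdhl at -0.02, Sc5d at 0.16 and Pmvk at 0.18 (DESeq2 adjusted p 0.549 to 0.963).

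**Figure D4:**
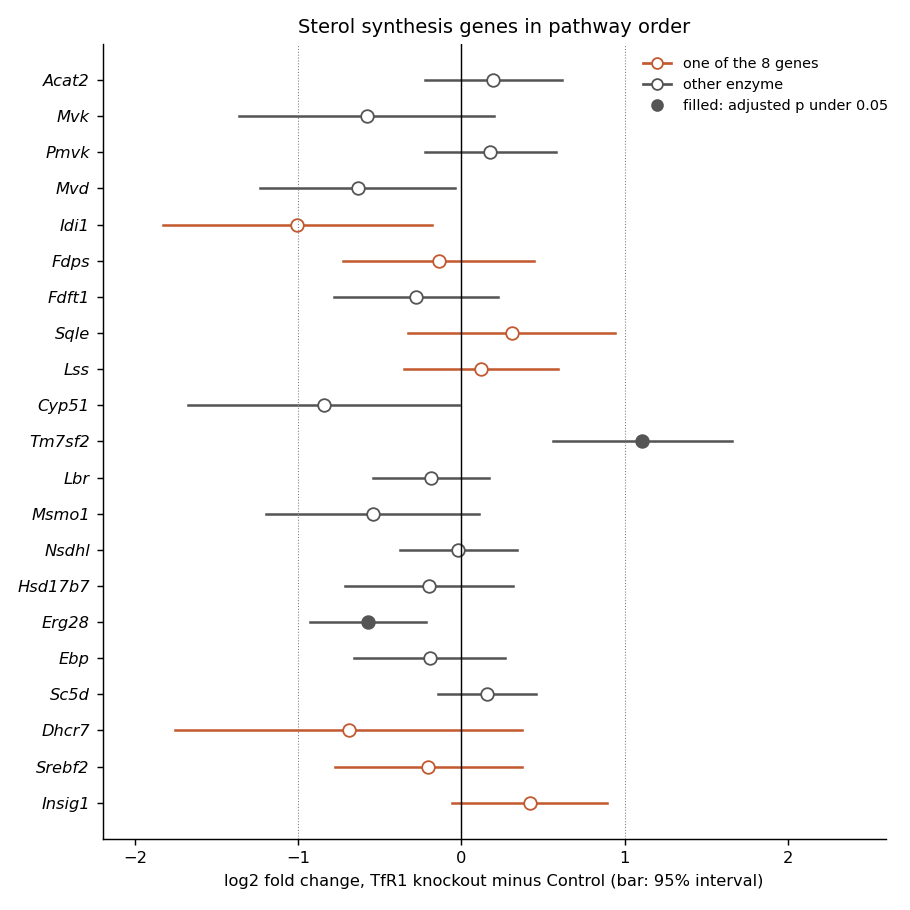
Log2 fold change (TfR1 knockout minus Control, with its 95% interval as a bar) of the enzymes in pathway order from Acat2 to Dhcr7, followed by the regulators Srebf2 and Insig1. Orange marks the 7 measured cholesterol synthesis genes, filled symbols mark an adjusted p under 0.05, and only Tm7sf2 (1.11) and Erg28 (-0.57) are filled.

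Calls on the lower side depended on the library left out. Without TfR1 knockout replicate 1, 5 of the 16 other enzymes fell, against 10.5% of all genes in that fit, namely Cyp51 by 1.47, Mvk by 1.05, Msmo1 by 0.95, Mvd by 0.89 and Erg28 by 0.70 on the log2 scale, with DESeq2 adjusted p from 8.99e-05 to 0.0237, and the median of the 7 measured genes of the set moved from -0.14 to -0.44 (-0.01 over all tested genes). Mvd also passed without Control replicate 3 (log2 fold change -0.84, DESeq2 adjusted p 0.0294). Tfrc was also highest in TfR1 knockout replicate 1 and lowest of the knockout libraries in replicate 2 (6976 and 4045 normalized counts), and its part in these values was not tested.

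The wider SREBP and sterol lists were read by the same test, in which 7.74% of all genes were higher, 7.18% lower and 14.9% either. Among 8 other regulators of SREBP processing 1 rose, Mbtps2, the second of the proteases that release SREBPs, from 512 ± 37.5 to 769 ± 94.2 normalized counts (log2 fold change 0.59, DESeq2 adjusted p 0.0122, edgeR adjusted p 0.0662), and 2867 of its 10105 exon bases are shared with Yy2. Srebf1, the paralog of Srebf2 that favours fatty acid genes, was at a log2 fold change of -0.18 (DESeq2 adjusted p 0.644), Scap at -0.04 (0.934) and Insig2 at 0.27 (0.427).

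Among 14 genes of sterol uptake and transport 2 passed, both higher, against 7.74% of all genes. Vldlr, a receptor for triglyceride-rich lipoproteins, rose from 2963 ± 146 normalized counts to 4537 ± 399 (log2 fold change 0.61, DESeq2 adjusted p 0.000569, edgeR adjusted p 0.0458). Npc1l1, a sterol importer at low counts, rose from 7.35 ± 3.08 to 39.1 ± 28.7 (log2 fold change 2.40, DESeq2 adjusted p 0.0131, edgeR adjusted p 0.0776). Without TfR1 knockout replicate 2 the log2 fold change of Npc1l1 was 1.68 (DESeq2 adjusted p 0.195). Of 11 genes listed for the oxysterol receptors LXR and for sterol efflux, 4 rose and 2 fell, against 7.74% and 7.18% of all genes. Abca1, the main cholesterol exporter to lipoproteins, rose from 1748 ± 555 to 3421 ± 896 (log2 fold change 0.97, DESeq2 adjusted p 0.0165, edgeR adjusted p 0.0922). Apoa1, the main apolipoprotein of HDL, rose from 5.36 ± 6.79 to 108 ± 108 (log2 fold change 4.30, DESeq2 adjusted p 0.000304, edgeR adjusted p 0.0677). Its raw counts were 16, 2 and 1 in the Control libraries against 75, 179 and 21, with 2 Control libraries under the floor of 3 counts. The log2 fold change of Apoa1 was 6.19 without Control replicate 1 and 3.11 without TfR1 knockout replicate 2. The other 2 that rose, named here after their values were seen, were the receptor gene Nr1h2 (log2 fold change 0.55, DESeq2 adjusted p 0.0135) and Mylip, a ubiquitin ligase (0.96, DESeq2 adjusted p 0.011). In edgeR and in limma-voom, 0 of the 11 genes were called higher and 1 lower. The partner exporters Abcg5 and Abcg8, whose exons overlap by 82 bases, fell from means of 25.4 and 25.5 to 4.48 and 3.68 normalized counts (DESeq2 adjusted p 0.0196 and 0.00227, edgeR adjusted p 0.0669 and 0.0305). The log2 fold change of Abcg5 (-2.53) was -1.87 without Control replicate 3 (DESeq2 adjusted p 0.209) and -3.12 without TfR1 knockout replicate 2.

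Of 10 tested genes of esterification and oxysterol synthesis 1 rose (background 7.74%), Cyp27a1, the mitochondrial sterol hydroxylase (log2 fold change 1.28, DESeq2 adjusted p 0.0275, edgeR adjusted p 0.123). None of 9 genes of the isoprenoid branch, which shares Fdps with the sterols, passed in DESeq2 (1 at an unadjusted p under 0.05), edgeR or limma-voom. Of 12 fatty acid synthesis genes 1 rose and 1 fell, against 7.74% and 7.18% of all genes. Scd1, the stearoyl desaturase, rose by 1.01 (DESeq2 adjusted p 0.0235, edgeR adjusted p 0.109), and Acss2, which makes acetyl-CoA from acetate and is an SREBP target, fell by 1.32 on the log2 scale (1846 ± 683 to 742 ± 173 normalized counts, DESeq2 adjusted p 0.00114, edgeR adjusted p 0.0481). The members of these lists beyond the ones named had adjusted p above 0.05. Vldlr, Abcg8, Apoa1 and Acss2 passed in all 6 fits that left out 1 library, while Nr1h2 passed in 3, Abcg5 in 1, and Mbtps2, Npc1l1, Abca1, Mylip, Cyp27a1 and Scd1 in 2. The median log2 fold changes were 0.05 for the regulators, 0.13 for uptake and transport, 0.38 for LXR and efflux, 0.28 for esterification and oxysterols, 0.15 for the isoprenoid branch and 0.11 for fatty acids, against 0.01 over all tested genes.

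**Figure D5:**
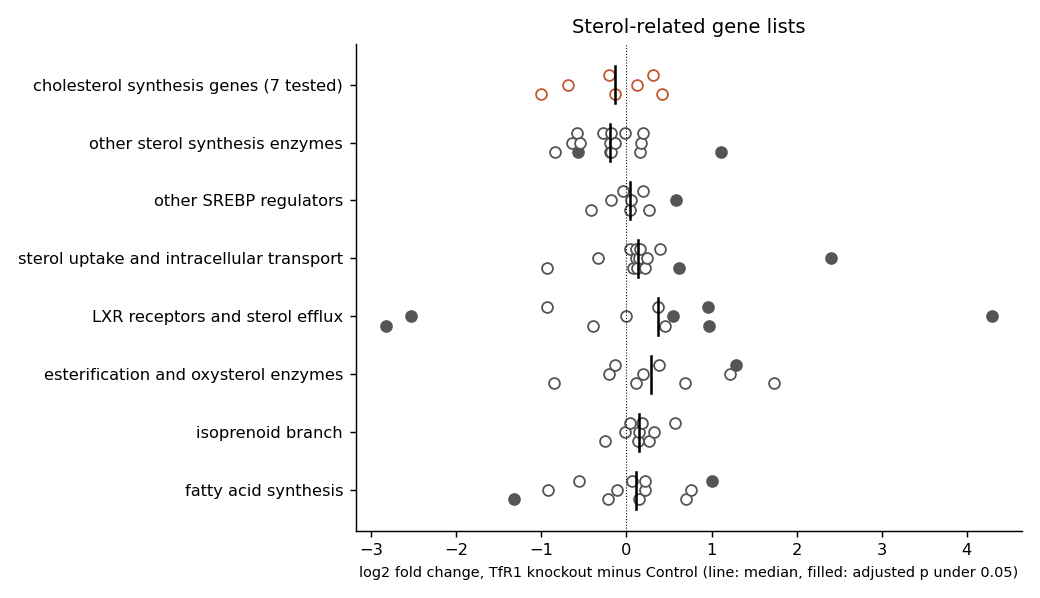
Log2 fold change (TfR1 knockout minus Control) of every tested gene in the set and in 7 sterol-related lists, with a line at each list's median and filled symbols for an adjusted p under 0.05. The set lies between -1.0 and 0.42 with no filled symbol, and the LXR and efflux list spreads widest, from -2.83 for Abcg8 to 4.30 for Apoa1.

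The genes whose levels over the 6 libraries were closest to the mean of the set were looked for among 11972 other genes averaging 100 or more normalized counts. The measure was the root-mean-square difference of centred log2(normalized count + 1). To the mean of the 7 measured genes, a mean chosen after the counts of Hmgcs1 were seen, the nearest were Mocs3 (0.0698), Homer1 (0.0767), Bnc2 (0.0808), Acbd4 (0.0843) and Srf (0.0920), with log2 fold changes of -0.26 to -0.06 and DESeq2 adjusted p of 0.608 to 0.914. With the few counts of Hmgcs1 kept in the mean, as in the rule for named genes, the nearest were Bnc2 (0.0781), Agtrap (0.0928), Yif1b (0.0934), Tmem106c (0.0968) and Car12 (0.102), so that Bnc2 alone was named both times and 4 of the 5 names rested on a gene taken as not measured. From the mean of the 7 Srebf2 itself stood 0.098 away and Fdps 0.147, and Idi1, Dhcr7 and Insig1 were the farthest, at 0.519, 0.552 and 0.559.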

How the data were processed

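Per the labels and the study's methods, total kidney RNA was enriched for poly-A transcripts, made into TruSeq libraries and read as single ends of 100 bases. The authors demultiplexed with CASAVA 1.8.2, trimmed with Trimmomatic, aligned to mm9 with TopHat 2.0.11 and deposited raw counts of uniquely mapped reads per gene made with HTSeq (its version and the gene annotation are not given in the sources used here). Unique counting lowers genes with near-identical copies.

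Groups and replicate numbers came from the labels. The members and lists were chosen with earlier results of these data known. The main test was DESeq2 1.42.0 in R 4.3.3 (Wald test, median-ratio size factors, unshrunken fold changes, no covariate, Benjamini-Hochberg adjustment over all 16509 genes left by independent filtering at a mean of 3.51 counts), and normalized counts are counts divided by those size factors. Groups are given as mean ± SD over 3 libraries. Genes with an adjusted p under 0.05 count as called. Library totals were 16591156 to 22898008 counts, and each group held 3 libraries. The part of counting error in the spread of a gene was not tested. edgeR 4.0.16 (quasi-likelihood, TMM) is given beside DESeq2. Its filter on low counts left 15308 genes.

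Named genes were the 8 members, the other enzymes, Insig2, Scap, Srebf1, Abca1 and Tfrc, the genes that passed in each other list (the 4 largest changes where more did), and the 5 genes of most similar pattern. Some genes of this rule are not reported here. Positions are from the GENCODE annotation of mm9, and promoters are from RefSeq. Alternatives were limma 3.58.1 with voom, other size factors, other filters and thresholds, a block for the replicate number, and fits that omit each library in turn. The code was tested on simulated data.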

Additional observations from a re-analysis of the deposited data

How the results depend on the processing

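The count of called genes in the set stayed at 0 higher in all alternatives and at 0 lower except with the replicate block (1, Idi1) and without TfR1 knockout replicate 1 (1, Idi1), so leaving out each library gave 0 to 1 lower. With the replicate number as a block, Idi1 (log2 fold change -1.12) and Cyp51 (-0.96) passed at DESeq2 adjusted p of 0.00194 and 0.00935, while Erg28, Mbtps2 and Abcg5 no longer did (0.0765, 0.0930 and 0.0698). Deviations of same-numbered libraries from their group means correlated at -0.038, 0.055 and 0.090 over 15303 genes. Control replicates 1 and 2 and TfR1 knockout replicate 1 correlated better with a library of another number. The study names wild type littermates as the controls of its gene expression comparison. Whether same-numbered libraries shared a litter or batch was not tested.

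Among the 16 other enzymes the main 1 higher and 1 lower became 1 and 0 in edgeR, 0 and 0 in limma-voom, and 1 and 0 with a 2-fold or an adjusted p of 0.01 threshold. Leaving out each library gave 0 to 5 lower. Over all genes the main 1277 higher and 1186 lower became 493 and 428 in edgeR, 485 and 456 in limma-voom, 728 and 736 with a 2-fold threshold, and 758 and 688 at an adjusted p under 0.01. Other size factors turned their balance, to 996 and 1407 with total counts, 1159 and 1349 with upper quartiles and 1220 and 1253 with TMM, while 3 of the 7 measured genes lay above 0 and 4 below under each of them. With total counts Cyp27a1 and Scd1 lost their calls (DESeq2 adjusted p 0.0563 and 0.0806). Leaving out each library gave 664 to 1531 higher and 575 to 1674 lower, with both counts over 1.5 times smaller without Control replicate 1 or 2 and the lower count without TfR1 knockout replicate 3 (659).

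No named gene changed sign except where 1 library was left out, and none of these reversed values passed the test. The range over the 6 such fits was -0.036 to 0.53 for Sqle, -0.50 to 0.025 for Fdps, -0.064 to 0.26 for Lss, -0.12 to 0.090 for Nsdhl, -0.22 to 0.071 for Scap and -0.095 to 0.30 for Tfrc. The cause was not tested. Under the alternatives, 512 values of 35 named genes kept their direction and call, 64 lost a call and 8 gained it.

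The lowest raw count among the 7 measured genes was 91, for Dhcr7 in TfR1 knockout replicate 2, and the part of depth was not tested. A looser sterol response element core raised the share of promoters with a match from 1.24% to 6.24%, and the longest transcript in place of all exons moved the Control level per kb of Sqle and Lss by more than 1 SD.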

Other observations

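The other cell type lists moved as follows in DESeq2, which called 7.74% of all genes higher and 7.18% lower. Of 5 distal convoluted tubule markers 4 fell, with sums of 14703 to 29163 normalized counts in Control and 6014 to 7631 in TfR1 knockout libraries. Of 7 proliferation markers 6 fell, from 10814 to 13779 in Control to 4472 to 7578 in TfR1 knockout libraries. Collecting duct markers, of which 3 of 7 rose and 1 fell, summed to 12945 to 24883 and 38714 to 66633. Among 6 podocyte and 6 endothelial markers 1 rose in each list. Of the 6 erythroid genes 5 were in the table and 3 were tested, of which 1 fell, and the globin genes Hba-a1 and Hbb-b1 were listed at 0 in all 6 libraries. The part of these lists in the values of the cholesterol synthesis genes was not tested.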
